A study of Homo sapiens with 5 samples.

Results

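The genes described here are the splicing factors whose symbols begin with SRSF and a number, HNRNP, SF3A or SF3B and a number, or SNRP. Of the 25343 gene rows of the count table, 63 carried such a symbol, with 12 in the SRSF family, 29 in HNRNP, 9 in SF3 and 13 in SNRP. A filter on low counts kept 53 of them for testing, namely 11 SRSF, 22 HNRNP, 9 SF3 and 11 SNRP rows. The symbols alone define the members, and this rule was chosen with earlier results of these data known.

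The 4 families act at different places in the splicing reaction. SR proteins, encoded by the SRSF genes, bind exonic sequences through an RNA recognition motif and recruit spliceosome components through a domain rich in arginine and serine. The hnRNP proteins coat nascent transcripts and often oppose SR proteins at a splice site, and several also act in RNA stability and export. The SF3a and SF3b proteins belong to the U2 small nuclear ribonucleoprotein (snRNP) and hold it at the branch point. The SNRP genes encode mostly the Sm proteins, which form a ring on the U1, U2, U4 and U5 small nuclear RNAs, and proteins particular to the U1 or U2 particle.

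The study measured RNA in SW620, a human colon carcinoma line, by poly(A) RNA sequencing of 2 libraries named pos (pos 1 and pos 3) and 3 named neg (neg 1, neg 2 and neg 3). Every library came from cells carrying tet-MUC1shRNA, a doxycycline-inducible hairpin against MUC1, grown in RPMI1640 with 10% FBS, streptomycin and penicillin and given doxycycline or vehicle. The labels do not state which of the names pos and neg is which treatment, so the names are kept. No cells with a control hairpin and doxycycline were analysed here, and the labels do not say whether the line is a clone.

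MUC1 had 27 reads in pos 1 and 13 in pos 3, against 176, 252 and 218 reads in neg 1, neg 2 and neg 3. Its log2 fold change, pos over neg, was -3.07 (SE 0.34, adjusted p = 0.0270, edgeR quasi-likelihood test with Benjamini-Hochberg adjustment), and the groups did not overlap. Total reads in genes were 12190025 and 13470767 in pos 1 and pos 3, against 10888704 to 14137678 in neg. The pos libraries were less alike than the neg libraries. The correlation of log2 CPM over genes was 0.912 between pos 1 and pos 3, against 0.983 to 0.993 between neg libraries, and fewer genes were detected in pos (14452 and 15530) than in neg (16832 to 17054). Pos 3 also had a low scaling factor, at 0.7046, with 1.0144 in pos 1 and 1.0864 to 1.1437 in neg. Of 10 colon epithelium markers 8 were tested; by edgeR 1 rose (CDX2, log2 fold change 2.18, adjusted p = 0.0337) and 1 fell (CDH1, -1.68, adjusted p = 0.0434). Their summed level, mostly KRT8 and KRT18, was 6958.5 to 14233 CPM in pos, against 5063 to 6497 CPM in neg. KRT20 had 0 and 4 reads in pos, against 16, 31 and 23 reads in neg, and CDX1 had at most 1 read in any library. PTPRC, CD3E, COL1A2 and COL3A1, which mark leukocytes and fibroblasts, had 0 reads in every library. The summed level of the 4 fibroblast markers was 6.39 to 6.43 CPM in pos, against 15.9 to 16.5 CPM in neg, and that of the 4 endothelial markers 0.890 to 1.48 CPM in pos, against 2.73 to 4.02 CPM in neg. COL1A1 gave nearly all of the fibroblast sum, with 6.39 and 6.22 CPM in pos, against 15.9 to 16.4 CPM in neg. Its log2 fold change was -1.36 (SE 0.21, adjusted p = 0.0340 by edgeR). VWF gave most of the endothelial sum in neg, with 2.57 to 3.83 CPM, against 0.243 and 1.48 CPM in pos. Such sums, resting mostly on 1 gene, are no count of cells. The part of these markers in the results was not tested. Fewer cells of a type and less RNA per cell cannot be told apart in bulk samples.

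CPM are read counts scaled to library size with TMM factors, and fold changes are pos over neg. Of the SNRP genes 5 of 11 tested rose in pos, of the SRSF genes 1 of 11 rose, and of the HNRNP and SF3 genes none of 22 and 9 passed the test. In total 6 of 53 members (11.3%) rose at an adjusted p under 0.05 by edgeR, of which 5 were SNRP genes and 1 was SRSF7. Over all 13604 tested genes, 5.06% rose and 4.13% fell at the same threshold, 9.20% in all. No member fell past the threshold in edgeR, DESeq2 or limma-voom. At an unadjusted p under 0.05 by edgeR, 21 members were higher and 2 lower, beside 2595 and 2115 of all 13604 tested genes. DESeq2 placed 17 members higher, 10 of them SNRP, 4 SRSF, 2 HNRNP and 1 SF3, where it placed 13.2% of all tested genes higher and 10.0% lower. In edgeR 0 members were past the threshold when any 1 neg library was left out, since no gene of the whole table was, while DESeq2 then placed 8, 6 and 6 members higher without neg 1, neg 2 and neg 3, beside 6.20%, 4.45% and 4.05% of all tested genes. Without pos 3, 12 members were higher and 0 lower by edgeR, beside 14.4% of all tested genes higher and 17.0% lower. Without pos 1, 26 members were higher and 8 lower, beside 30.9% of all tested genes higher and 32.1% lower; the spread was in both cases taken from neg alone. The labels do not tie the libraries to separate cultures beyond stating triplicates, so p-values measure the spread between these libraries, which may be technical.

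The family medians had the same order in both pos libraries. The median log2 fold change was 1.42 for SNRP (range 0.28 to 2.24), 0.48 for SRSF (-0.12 to 1.13), 0.40 for SF3 (-0.43 to 1.33) and -0.07 for HNRNP (-0.77 to 0.79), beside -0.05 over all tested genes. Against the neg mean, the median log2 ratio of SNRP genes was 0.82 in pos 1 and 1.86 in pos 3, and that of SRSF genes was 0.41 in pos 1 and 0.63 in pos 3. For SF3 genes it was 0.20 in pos 1 and 0.36 in pos 3, and for HNRNP genes 0.02 in pos 1 and -0.18 in pos 3. SNRP genes therefore had the highest median in each pos library and HNRNP genes the lowest, and the distance between them was wider in pos 3. Both pos libraries lay above all 3 neg libraries for 28 members (52.8%) and below them for 6 (11.3%), beside 26.7% and 29.3% of all tested genes. The 28 were 10 SNRP, 8 SRSF, 5 HNRNP and 5 SF3 genes, and the 6 were 5 HNRNP genes and 1 SF3 gene.

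**Figure D1:**
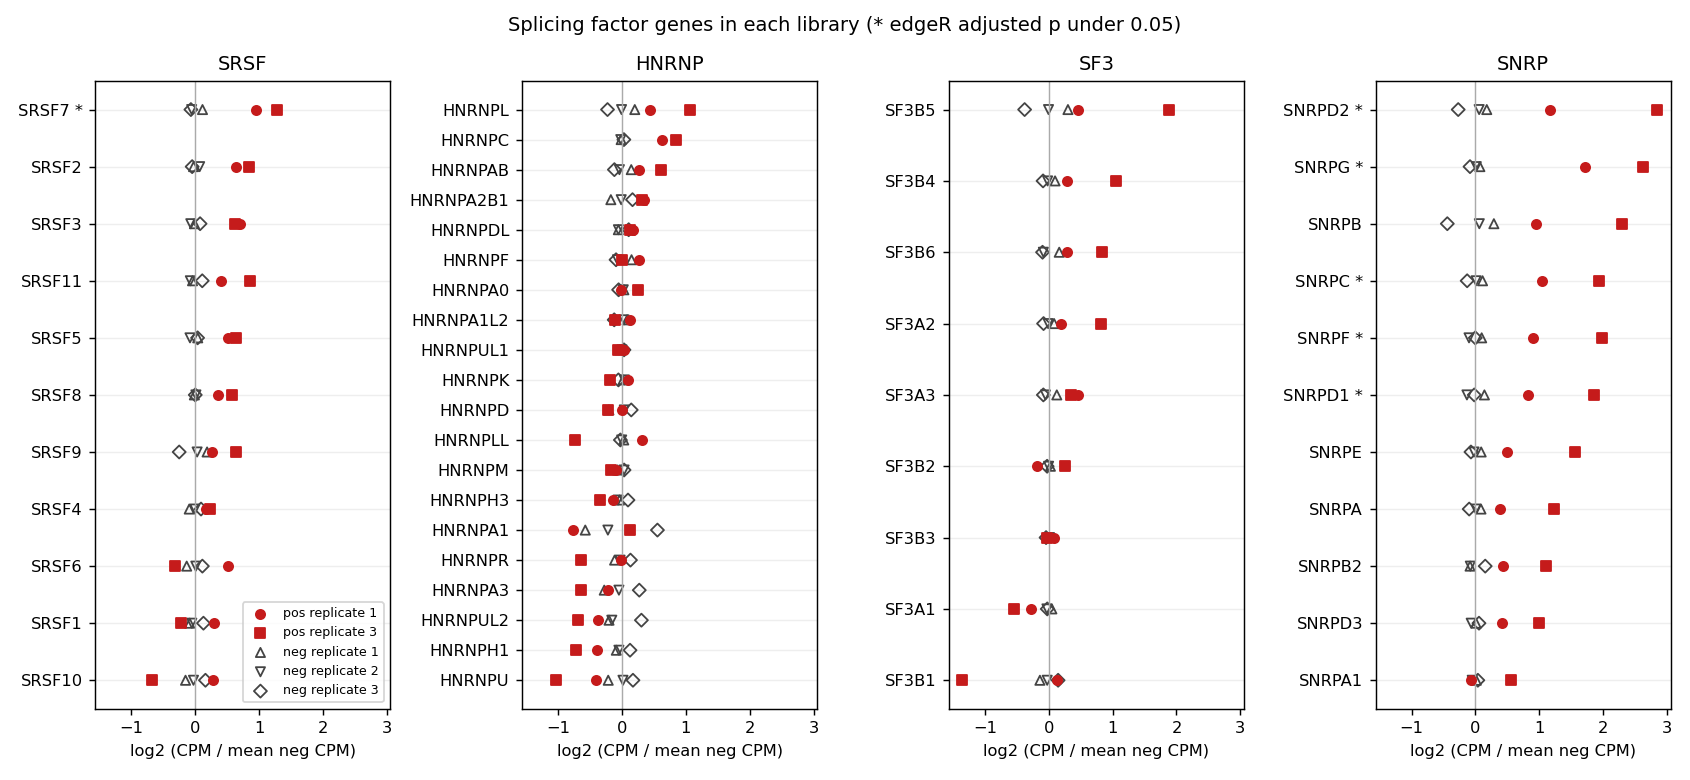
Log2 ratio of each tested member's CPM to the mean of the 3 neg libraries (x axis), 1 row per gene and 1 panel per family ordered by fold change, with filled points for pos 1 and pos 3, open points for neg 1, neg 2 and neg 3, and a star for genes past the edgeR threshold. HNRNPH2 and HNRNPU-AS1, with means under 5 CPM, are left out; both pos points lie right of every neg point in 10 of 11 SNRP rows, and pos 3 lies farther right than pos 1 in all 11.

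The summed level of a family shows how much the most abundant members weigh. SNRP genes summed to 2134 CPM in pos 1 and 4914 CPM in pos 3, against 1301, 1187 and 1085 CPM in neg 1, neg 2 and neg 3. The mean sum was 3524 ± 1966 CPM in pos (SD, n = 2) and 1191 ± 108 CPM in neg (SD, n = 3), a ratio of 2.96. The groups did not overlap, but pos 3 lay far above pos 1. SRSF genes summed to 2234 and 2121 CPM in pos, against 1524, 1527 and 1619.6 CPM in neg, and the ratio of means was 1.40 with the pos libraries close together. HNRNP genes summed to 5995 and 5727 CPM in pos, against 5313, 5418 and 5681 CPM in neg, a ratio of 1.07 with pos 3 only just above neg 3. SF3 genes summed to 2259.6 and 2507 CPM in pos, against 2173, 2097 and 2073 CPM in neg, a ratio of 1.13. Without TMM factors, SRSF genes held 0.226% of reads in pos 1 and 0.149% in pos 3, against 0.165% to 0.185% in neg. HNRNP genes held 0.608% and 0.403% in pos, against 0.577% to 0.649% in neg. SF3 genes held 0.229% and 0.177% in pos, against 0.236% to 0.237% in neg. SNRP genes held 0.216% and 0.346% in pos, against 0.124% to 0.141% in neg. By this share pos 3 lay below every neg library in all families but SNRP. With 2 libraries against 3, a two-sided exact permutation test of such a sum cannot give a p below 0.2, so none is given.

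**Figure D2:**
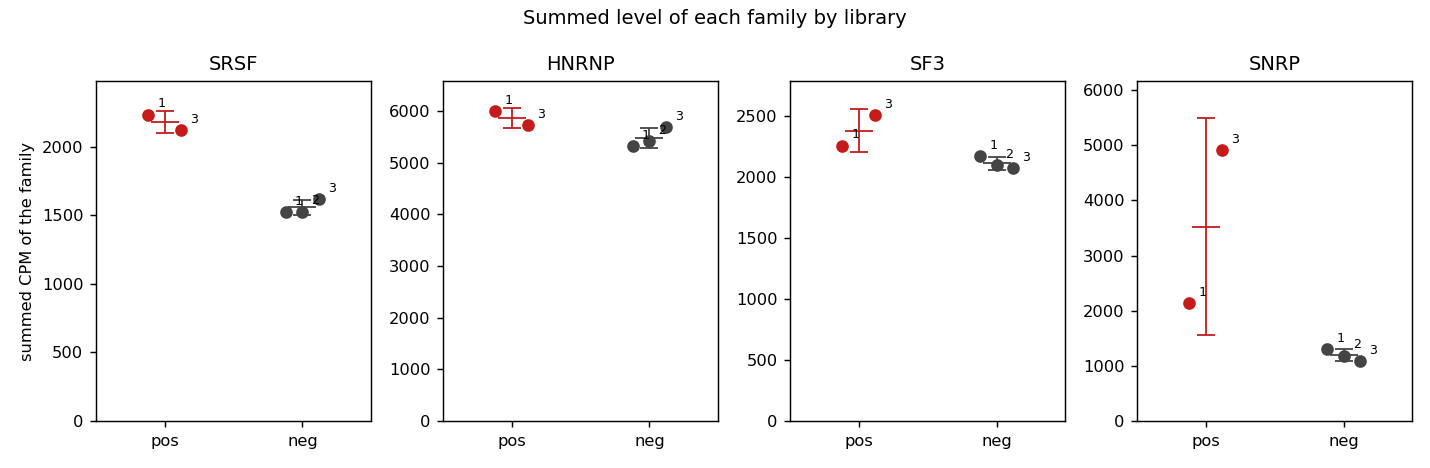
Summed CPM of the members of each family (y axis, from 0, with a scale of its own in each panel), with a point for each library beside its replicate number, a horizontal dash for the mean and a bar for the SD in pos (n = 2) and neg (n = 3). The SNRP sum is 4914 CPM in pos 3 and 2134 CPM in pos 1, both above the neg values of 1085 to 1301 CPM.

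Among SNRP genes, 5 of 11 tested rose, and all 11 had positive log2 fold changes. SNRPG encodes SmG, a subunit of the Sm ring. It had 179 CPM in pos 1 and 333 CPM in pos 3, against 57.0, 54.8 and 51.2 CPM in neg 1, neg 2 and neg 3. Its log2 fold change was 2.23 (SE 0.29, adjusted p = 0.0316), which is 4.70-fold, and the lowest pos value was well above the highest neg value. SNRPD2, encoding SmD2, had 494 and 1584 CPM in pos, against 249, 229 and 183 CPM in neg. Its log2 fold change was 2.24 (SE 0.48, adjusted p = 0.0457), and pos 3 held more than pos 1 by a wider margin than for SNRPG. SNRPD1, encoding SmD1, had 148 and 304 CPM in pos, against 92.8, 76.8 and 83.1 CPM in neg. The log2 fold change of SNRPD1 was 1.42 (SE 0.32, adjusted p = 0.0494), again with no overlap. SNRPF, encoding SmF, had 92.8 and 195 CPM in pos, against 53.1, 46.3 and 49.6 CPM in neg. It rose by a log2 fold change of 1.54 (SE 0.33, adjusted p = 0.0457). SNRPC encodes the C protein of the U1 snRNP that stabilises its pairing with the 5′ splice site. It had 144 and 266 CPM in pos, against 75.5, 70.4 and 63.9 CPM in neg, a log2 fold change of 1.55 (SE 0.29, adjusted p = 0.0391). The called values differed between the pos libraries: without pos 3 the log2 fold changes were 1.69 for SNRPG, 1.14 for SNRPD2, 0.79 for SNRPD1, 0.87 for SNRPF and 1.01 for SNRPC, and without pos 1 they were 2.66, 2.89, 1.90, 2.02 and 1.98 in the same order. All adjusted p-values of members are from edgeR's quasi-likelihood test with Benjamini-Hochberg adjustment over 13604 genes.

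The remaining SNRP genes did not pass the edgeR test. SNRPB, which encodes SmB, had 519.6 and 1321 CPM in pos, against 329, 281 and 199 CPM in neg, with a log2 fold change of 1.77 (SE 0.43, adjusted p = 0.0546 by edgeR and 0.000942 by DESeq2). Its pos values lay above every neg value, so that only the edgeR threshold separated SNRPB from the called genes. SNRPB2, encoding a U2 snRNP protein, had 169 and 270.3 CPM in pos, against 118, 119 and 139.5 CPM in neg (log2 fold change 0.81, SE 0.25, adjusted p = 0.0863). SNRPD3, encoding SmD3, had 148 and 222 CPM in pos, against 112, 106 and 115 CPM in neg (log2 fold change 0.74, SE 0.23, adjusted p = 0.0834). SNRPE, encoding SmE, and SNRPA, encoding the A protein of the U1 snRNP, had log2 fold changes of 1.12 and 0.86 with no overlap of the groups. SNRPA1, encoding the A′ protein of the U2 snRNP, was the exception, with 80.5 and 124 CPM in pos, against 81.3 to 86.5 CPM in neg. The log2 fold change of SNRPA1 was 0.28 (SE 0.24, adjusted p = 0.422), and pos 1 lay below the neg values. SNRPN, which encodes a protein close to SmB, was listed at 0 in every library, as was the pseudogene SNRPD2P2. In GENCODE 44, SNRPN overlaps SNURF and SNHG14 on the same strand. That annotation also names 20 pseudogenes after SNRPG, 18 after SNRPC, 10 after SNRPE, 4 after SNRPF, 2 after SNRPD2, 1 after SNRPB and 0 after SNRPD1. How reads shared with such copies were counted is not given in the sources used here, so the levels of genes with pseudogenes are uncertain.

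On GRCh38, with GENCODE 44 gene limits, the 5 SNRP genes that rose lie on separate chromosomes: SNRPG at chr2:70281362-70293740 (minus strand), SNRPD2 at chr19:45687460-45692569 (minus), SNRPC at chr6:34757505-34773857 (plus), SNRPF at chr12:95858952-95903828 (plus) and SNRPD1 at chr18:21612314-21633524 (plus). SRSF7 lies at chr2:38743599-38751494 (minus).

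Of 11 SRSF genes tested, 1 rose by edgeR, and 10 had positive log2 fold changes. SRSF7, an SR protein with a zinc knuckle beside its RNA recognition motif, had 219 CPM in pos 1 and 273 CPM in pos 3, against 122, 108 and 107 CPM in neg 1, neg 2 and neg 3. The means were 246 ± 38.3 CPM in pos (SD, n = 2) and 113 ± 8.07 CPM in neg (SD, n = 3), a log2 fold change of 1.13 (SE 0.19, adjusted p = 0.0381). SRSF7 was the called member whose pos libraries were most alike, and GENCODE names no pseudogene after it. SRSF3, the smallest SR protein, had the most reads of the family, with 437 and 417 CPM in pos, against 267, 257 and 284 CPM in neg. Its log2 fold change was 0.66 (SE 0.18, adjusted p = 0.0636 by edgeR and 0.0161 by DESeq2), and the 2 pos libraries were nearly equal. SRSF2, which binds exonic enhancers, had 205 and 236 CPM in pos, against 129, 138 and 127 CPM in neg (log2 fold change 0.75, SE 0.18, adjusted p = 0.0535 by edgeR and 0.0117 by DESeq2). SRSF11, SRSF5 and SRSF8 also had both pos libraries above neg, with log2 fold changes of 0.65, 0.57 and 0.48, and SRSF9 and SRSF4 had 0.47 and 0.20.

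The lowest 3 SRSF genes had pos 1 and pos 3 on opposite sides of neg. SRSF1, an SR protein active in constitutive and alternative splicing, had 198 CPM in pos 1 and 138 CPM in pos 3, against 152, 155 and 176 CPM in neg (log2 fold change 0.06, SE 0.23, adjusted p = 0.855). SRSF6 had 378 and 214 CPM in pos, against 242, 267 and 287 CPM in neg (log2 fold change 0.16, SE 0.28, adjusted p = 0.706). SRSF10, a splicing repressor when dephosphorylated, had 144 and 74.6 CPM in pos, against 107, 117 and 133 CPM in neg (log2 fold change -0.12, SE 0.31, adjusted p = 0.797). For these genes the 2 pos libraries differed more from each other than the groups did. SRSF12 had at most 1 read in any library and was not tested.

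No HNRNP gene of 22 tested passed the edgeR threshold, where 4 had an unadjusted p under 0.05 (2 higher, 2 lower) and DESeq2 placed 2 higher. At that unadjusted p, 2595 of all 13604 tested genes were higher and 2115 lower by edgeR. HNRNPC, whose protein binds uridine tracts in nascent RNA, had 754 CPM in pos 1 and 881 CPM in pos 3, against 484, 482 and 499 CPM in neg 1, neg 2 and neg 3. The log2 fold change of HNRNPC was 0.74 (SE 0.19, adjusted p = 0.0584 by edgeR and 0.0105 by DESeq2), with narrow neg values far below pos. HNRNPL, which binds CA repeats, had 322 and 496 CPM in pos, against 272, 235 and 202 CPM in neg (log2 fold change 0.79, SE 0.26, adjusted p = 0.0939 by edgeR and 0.0450 by DESeq2). HNRNPAB had 189 and 240.3 CPM in pos, against 174, 153 and 145 CPM in neg (log2 fold change 0.45, SE 0.20, adjusted p = 0.170 by edgeR). HNRNPA2B1 had the most reads of the family, with 807 and 793 CPM in pos, against 564, 631 and 713 CPM in neg. Its log2 fold change was 0.33 (SE 0.20, adjusted p = 0.277 by edgeR), with both pos values above neg but close to neg 3.

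At the other end of the family, HNRNPU, a nuclear scaffold protein, had 399 CPM in pos 1 and 259 CPM in pos 3, against 455, 534 and 595 CPM in neg (log2 fold change -0.68, SE 0.27, adjusted p = 0.132 by edgeR). HNRNPH1, which binds G-rich tracts, had 199 and 158 CPM in pos, against 245, 252 and 285 CPM in neg (log2 fold change -0.55, SE 0.20, adjusted p = 0.120 by edgeR). Both pos libraries lay below neg for these genes and for HNRNPUL2, HNRNPH3 and HNRNPM, whose log2 fold changes were -0.52, -0.24 and -0.13. HNRNPU-AS1, antisense to HNRNPU, had 27 and 6 reads in pos, against 23, 38 and 43 reads in neg (log2 fold change -0.77, SE 0.61, adjusted p = 0.387 by edgeR). The libraries are stranded but the strand setting of the counting is not given, so its reads cannot be told apart from those of HNRNPU. The other 12 tested HNRNP rows ranged from -0.41 (HNRNPA3) to 0.14 (HNRNPDL and HNRNPF), and 11 of them had groups that overlapped. HNRNPK, which binds C-rich sequences, had 659 and 542 CPM in pos, against 622, 631 and 591 CPM in neg, so that its pos values enclosed those of neg.

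HNRNPA1, an abundant protein in most cells, was listed at only 20.4 and 37.5 CPM in pos, against 23.2, 29.7 and 50.8 CPM in neg. Per kilobase of transcript it had 7.74 in pos and 9.23 in neg, where HNRNPA2B1 had 221 in pos and 175 in neg. GENCODE 44 names 74 pseudogenes after HNRNPA1, and its level in this table is uncertain. HNRNPH2, which GENCODE overlaps with a readthrough of RPL36A, had 21 and 1 reads in pos, against 14, 19 and 5 reads in neg. The HNRNP rows HNRNPA1P10, HNRNPA1P33, HNRNPA3P1, HNRNPCL1, HNRNPCL2, HNRNPKP3 and HNRNPUL2-BSCL2 had 0 to 6 reads per library and were not tested.

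No SF3 gene of 9 tested passed the edgeR threshold, where 3 had an unadjusted p under 0.05, all higher, and DESeq2 placed 1 higher. Of all 13604 tested genes, 2595 were higher at that unadjusted p by edgeR. SF3B5, a small SF3b subunit, had 167 CPM in pos 1 and 446 CPM in pos 3, against 149.6, 121 and 93.5 CPM in neg 1, neg 2 and neg 3. The log2 fold change of SF3B5 was 1.33 (SE 0.43, adjusted p = 0.0932 by edgeR and 0.0169 by DESeq2), and pos 3 carried most of the difference. SF3B4 had 69.7 and 119 CPM in pos, against 61.3, 56.5 and 53.8 CPM in neg (log2 fold change 0.72, SE 0.27, adjusted p = 0.120 by edgeR). SF3B6, the subunit that touches the branch adenosine, had 149.8 and 220.2 CPM in pos, against 138, 116 and 115 CPM in neg (log2 fold change 0.58, SE 0.23, adjusted p = 0.139 by edgeR). SF3A2, SF3A3 and SF3B2 had log2 fold changes of 0.54, 0.40 and 0.05.

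SF3B3, with the most reads of the family, had 678 and 627 CPM in pos, against 653, 646 and 623 CPM in neg (log2 fold change 0.03, SE 0.18, adjusted p = 0.927 by edgeR). SF3B1, the subunit that closes around the branch helix and is often mutated in myeloid neoplasms, had 398 CPM in pos 1 and 142 CPM in pos 3, against 329.9, 357 and 402 CPM in neg. The log2 fold change of SF3B1 was -0.43 (SE 0.43, adjusted p = 0.496 by edgeR); it was 0.10 without pos 3 and -1.31 without pos 1. SF3A1 had 126 and 104 CPM in pos, against 158, 149.9 and 150.5 CPM in neg (log2 fold change -0.41, SE 0.19, adjusted p = 0.178 by edgeR), the SF3 gene whose pos values both lay below neg. Subunits of 1 particle thus had values on both sides of neg in pos 3, with SF3B5 high and SF3B1 low.

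Transcript length followed the fold change over the whole table and over the members. Length here is that of the GENCODE canonical transcript in nucleotides (nt). Its family median was 1082 nt for SNRP (452 to 4858), 2774 nt for SF3 (651 to 9692), 3165 nt for HNRNP (1343 to 8713) and 3959 nt for SRSF (1152 to 7656). Spearman's rho between length and log2 fold change was -0.63 over 52 members and -0.58 over 13197 tested genes, a correlation across genes of the same libraries and no replicate measure. It was steeper in pos 3 (-0.64 over members, -0.66 over all) than in pos 1 (-0.45 over members, -0.31 over all). Tested genes were divided by length into 5 equal groups. In the shortest, 66 to 1741 nt, the median log2 fold change was 0.84 over all genes and 0.86 over the 15 members there, of which 8 are SNRP. In the next group, 1742 to 2687 nt, it was 0.20 over 11 members and 0.31 over all genes. In the middle group, 2688 to 3864 nt, it was 0.19 over 8 members and -0.07 over all genes. The group of 3865 to 5686 nt gave 0.14 over 11 members and -0.36 over all genes, and the longest gave -0.30 over 7 members and -0.65 over all genes. The short members as a group were thus at the level of short genes in general, and the members above 2687 nt had higher medians than genes of their length. Among the short members, SNRPD2, SNRPG, SNRPB, SNRPC, SNRPF and SNRPE lay between 1.12 and 2.24, while SNRPA had 0.86 and SNRPA1 0.28. Of the short members outside SNRP, only SF3B5, at 1.33, lay above 0.84.

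**Figure D3:**
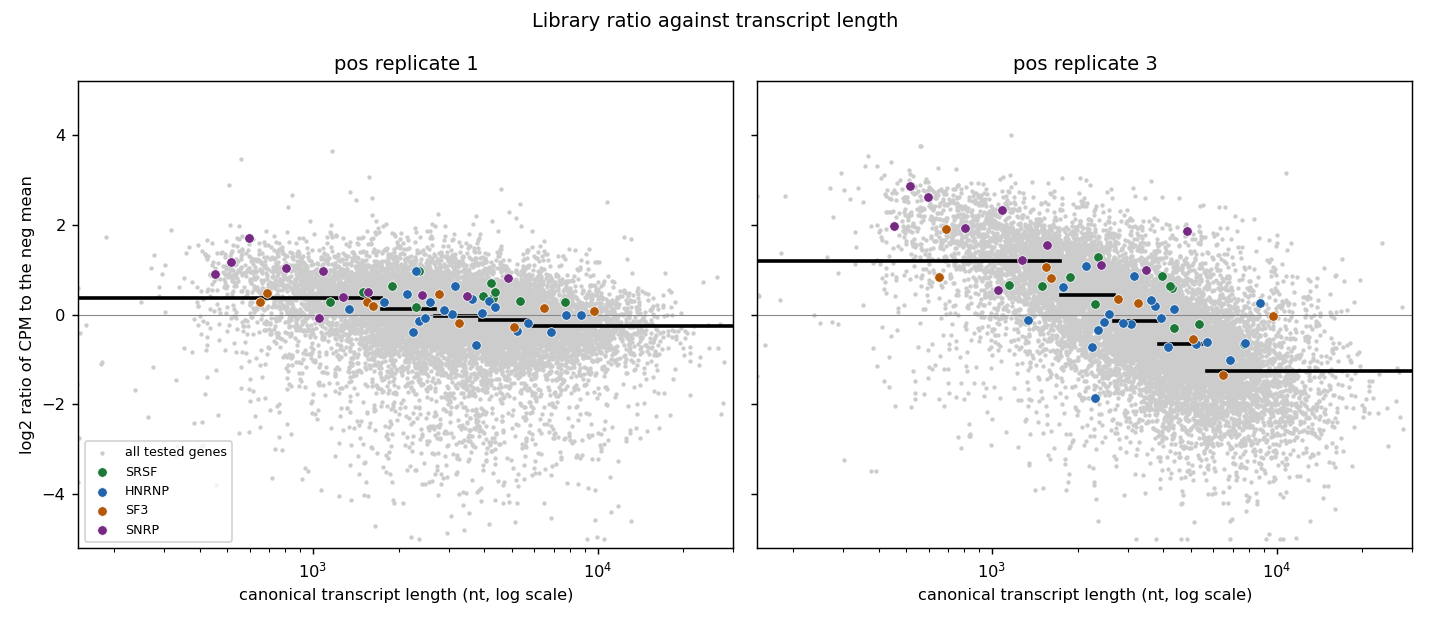
Log2 ratio of CPM to the neg mean (y axis) in pos 1 (left) and pos 3 (right) against canonical transcript length in nt (x axis, log scale), for all tested genes in grey and the members coloured by family, with black lines for the median of all genes in each length group; ratios beyond ±5 are drawn at 5, and the shortest and longest few transcripts lie outside the axis. The median of the shortest group is 0.37 in pos 1 and 1.18 in pos 3, that of the longest is -0.26 in pos 1 and -1.25 in pos 3, and most SNRP genes sit at the short end.

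The fit was therefore repeated with a smooth length trend taken out of each library's counts. In it 12 of 53 members rose by edgeR (6 SRSF, 5 SNRP and 1 HNRNP) and 0 fell, beside 7.34% of all tested genes higher and 6.64% lower. After the removal, Spearman's rho between canonical length and log2 fold change was 0.32 over members and 0.01 over all tested genes. Longer members thus tended to have higher values in this fit. The family medians became 0.59 for SNRP, 0.54 for SRSF, 0.07 for SF3 and 0.00 for HNRNP. SNRPG had a log2 fold change of 0.93 (adjusted p = 0.0182), SNRPD2 of 0.71 (adjusted p = 0.0380) and SRSF7 of 0.91 (adjusted p = 0.0144), all by edgeR. SNRPC and SNRPF did not pass this fit, with log2 fold changes of 0.45 (adjusted p = 0.0684 by edgeR) and 0.08 (adjusted p = 0.735 by edgeR). SRSF3 passed it at 0.99 (adjusted p = 0.0164 by edgeR), HNRNPC at 0.81 (adjusted p = 0.0215 by edgeR) and SNRPB at 0.82 (adjusted p = 0.0451 by edgeR), while SF3B5 had 0.05 (adjusted p = 0.870 by edgeR).

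The length used for a gene decided part of this. SNRPD1 has a canonical transcript of 4858 nt, while its coding transcripts run from 320 to 4858 nt with a median of 723 nt. Its length-adjusted log2 fold change was 1.97 with the canonical length and 0.35 (adjusted p = 0.159 by edgeR) with the median coding length, a fit added after the data were seen. SRSF1, with coding transcripts of 568 to 5343 nt, had 0.54 (adjusted p = 0.0412 by edgeR) with the canonical length and -0.04 (adjusted p = 0.928 by edgeR) with the median length. SRSF10 had 0.55 (adjusted p = 0.0378 by edgeR) with the canonical length and -0.36 (adjusted p = 0.522 by edgeR) with the median length, beside -0.12 without a length term. With median coding lengths 5 members rose (SRSF7, SRSF3, SNRPG, SNRPD2 and SNRPC), beside 5.96% of all tested genes higher and 5.45% lower. The medians were then 0.53 for SNRP, 0.20 for SF3 and 0.12 for SRSF. Over the 3 edgeR fits, 14 members rose in at least 1 and 3 rose in all of them, namely SRSF7, SNRPD2 and SNRPG. The matching counts over all tested genes were not taken, so these 2 counts have no background beside them.

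**Figure D4:**
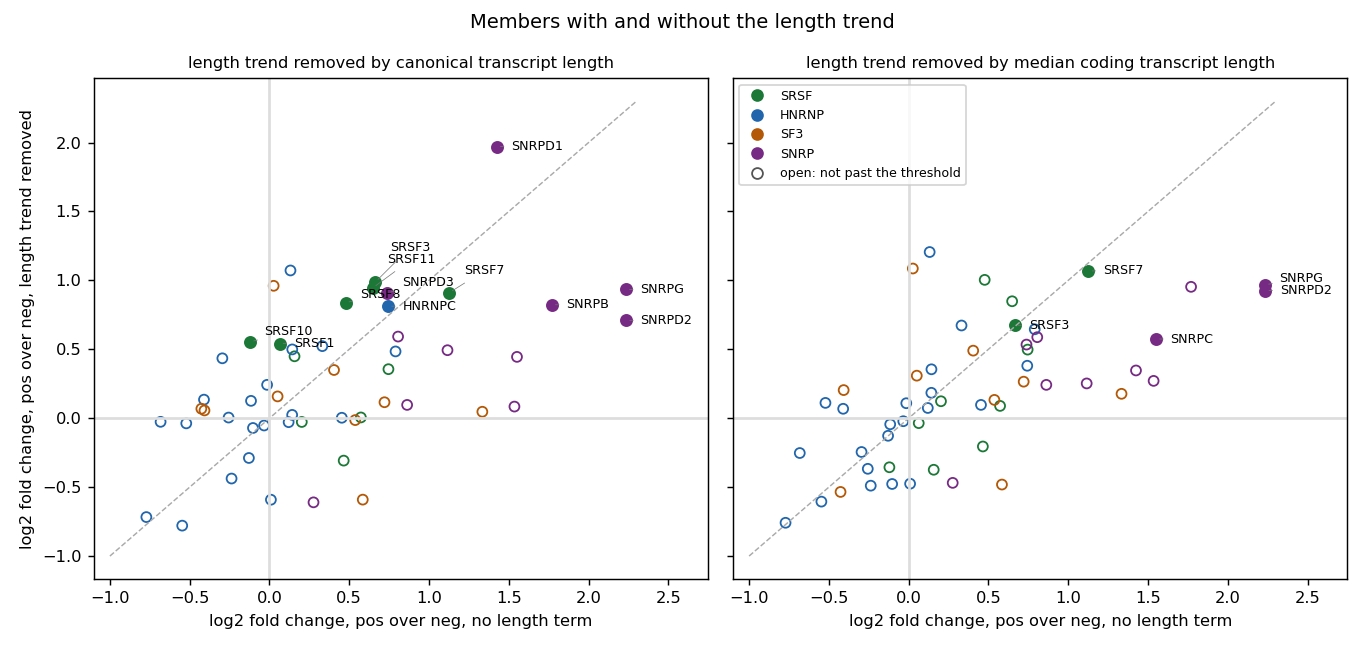
Log2 fold change, pos over neg, of each member with the length trend removed (y axis) against that without a length term (x axis), by canonical transcript length (left) and by median coding transcript length (right); points are coloured by family, filled where the length-removed fit passed the edgeR threshold, and the dashed line marks equal values. SNRPG, SNRPD2 and SRSF7 are filled in both panels, and SNRPD1 lies at 1.97 on the left and 0.35 on the right.

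Promoters of the members were read from RefSeq (GRCh38.p14), as the 250 bases before the gene's start. Of 53 tested members 48 were in that table, and 35 had a RefSeq start within 50 nt of the GENCODE canonical start. Below are 1 promoter from each family, shown as examples of where the searched motifs lie in a member of each family, written 5′ to 3′ on the gene's strand with motif matches in capitals. They are SNRPB at chr20:2470790-2471039 (minus strand), SF3B6 at chr2:24076327-24076576 (minus), HNRNPC at chr14:21269443-21269692 (minus) and SRSF3 at chr6:36594112-36594361 (plus).
SNRPB: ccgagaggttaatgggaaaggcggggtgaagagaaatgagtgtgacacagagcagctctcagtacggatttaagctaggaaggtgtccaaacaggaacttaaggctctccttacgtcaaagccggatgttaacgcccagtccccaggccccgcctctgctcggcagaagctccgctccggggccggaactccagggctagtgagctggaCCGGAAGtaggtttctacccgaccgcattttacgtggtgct
SF3B6: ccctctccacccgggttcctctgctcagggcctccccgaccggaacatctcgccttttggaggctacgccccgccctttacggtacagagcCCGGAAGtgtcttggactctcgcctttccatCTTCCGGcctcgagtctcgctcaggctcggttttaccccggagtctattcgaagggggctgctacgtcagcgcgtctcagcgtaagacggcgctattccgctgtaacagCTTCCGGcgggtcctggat
HNRNPC: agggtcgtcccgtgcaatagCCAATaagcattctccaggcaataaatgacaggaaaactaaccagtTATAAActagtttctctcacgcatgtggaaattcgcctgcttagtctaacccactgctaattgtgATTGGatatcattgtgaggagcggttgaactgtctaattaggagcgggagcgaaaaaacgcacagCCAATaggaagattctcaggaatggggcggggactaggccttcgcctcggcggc
SRSF3: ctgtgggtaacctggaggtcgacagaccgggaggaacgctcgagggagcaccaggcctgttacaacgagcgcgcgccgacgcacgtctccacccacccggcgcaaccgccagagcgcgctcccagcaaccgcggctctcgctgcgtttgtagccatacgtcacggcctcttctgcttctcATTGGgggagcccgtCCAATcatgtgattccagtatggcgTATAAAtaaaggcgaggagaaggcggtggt

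The motifs searched, on both strands, were CCGGAAG, the core bound by ETS factors, the CCAAT box spelled by its name, the TATA box TATAAA, the E-box CACGTG, and the palindromic NRF1 site. None of these contains another. CCGGAAG or its reverse complement lay in 4 of 6 SNRP promoters (66.67%) and 6 of 8 SF3 promoters, and in 2 of 9 SRSF and 2 of 12 HNRNP promoters, beside 17.13% of 8151 promoters of tested genes and 8.815% of all 27305 promoters. SNRPB has 1 copy at 41 bases before the start, and SF3B6 has copies at 159, 128 and 19 bases before it. CCAAT lay in 10 of 12 HNRNP promoters (83.33%), 3 of 6 SNRP, 2 of 9 SRSF and 1 of 8 SF3 promoters, beside 36.14% of tested genes and 33.04% of all promoters. HNRNPC has it at 230, 119 and 54 bases before the start, and SRSF3 at 70 and 55 bases, with TATAAA at 30 bases. TATAAA lay in 6 of 35 member promoters (17.14%), beside 4.871% of tested genes and 11.13% of all promoters. CACGTG lay in 4 of 12 HNRNP promoters and 1 of 8 SF3 promoters, beside 9.287% of tested genes and 6.49% of all promoters, and the NRF1 site lay in 0 of 35, beside 2.233% and 1.128%. A match describes the letters only. The promoters of SRSF7, SNRPG, SNRPD2 and SNRPD1, all past the edgeR threshold, were not among the 35. Whether the motifs go with the fold changes was not tested.

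Other parts of the splicing machinery were read from lists of known components. All 8 LSM ring proteins, relatives of the Sm proteins that bind U6 RNA or act in decay, were tested; 3 rose and 0 fell by edgeR, with a median log2 fold change of 1.32. LSM3 had 66.4 CPM in pos 1 and 111 CPM in pos 3, against 33.8, 27.0 and 29.5 CPM in neg 1, neg 2 and neg 3 (log2 fold change 1.56, SE 0.27, adjusted p = 0.0381 by edgeR), with no overlap. Of 4 further genes named SNRNP, 1 rose, with a median of 0.96. It was SNRNP25, of the minor spliceosome, with 19.4 and 46.6 CPM in pos, against 6.15, 7.98 and 6.51 CPM in neg (log2 fold change 2.26, SE 0.39, adjusted p = 0.0382 by edgeR). In the list of the SMN complex and Sm assembly, which loads Sm rings onto RNA, SMN1 and SMN2 had 0 reads in every library and were not tested. Of the 11 genes of that list that were tested, 1 rose, with a median of 0.47. It was GEMIN6, with 27.4 and 46.3 CPM in pos, against 13.8, 11.5 and 12.4 CPM in neg (log2 fold change 1.55, SE 0.28, adjusted p = 0.0386 by edgeR).

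Of 16 U5 and tri-snRNP proteins 2 rose, with a median of 0.44, and PPIH, a cyclophilin of the U4/U6 particle, had 54.8 and 114 CPM in pos, against 20.8, 22.3 and 18.6 CPM in neg (log2 fold change 2.04, SE 0.33, adjusted p = 0.0365 by edgeR). Of 16 early recognition factors 2 rose, with a median of 0.20, and DNAJC8 had 212 and 265 CPM in pos, against 122, 125 and 119.8 CPM in neg (log2 fold change 0.96, SE 0.19, adjusted p = 0.0410 by edgeR). The other was PHF5A, a subunit of SF3b whose symbol lies outside the SF3 family, with a log2 fold change of 1.53 (adjusted p = 0.0433 by edgeR). Of 17 PRP19 complex genes 2 rose, with a median of 0.21, and PPIL1 had 114 and 145 CPM in pos, against 71.3, 64.8 and 65.3 CPM in neg (log2 fold change 0.95, SE 0.19, adjusted p = 0.0445 by edgeR). In this fit these 6 lists all held genes that rose and none that fell, beside 5.06% of all tested genes higher and 4.13% lower. Canonical transcripts were 3359 nt for LSM3, 1087 nt for SNRNP25, 3705 nt for GEMIN6 and 754 nt for PPIH. They were 1763 nt for DNAJC8, 1053 nt for PHF5A and 1516 nt for PPIL1. With the canonical length trend removed, 4 of 8 LSM genes, 3 of 11 SMN genes and 3 of 16 early recognition factors rose by edgeR. In that fit 1 of 4 SNRNP genes, 2 of 17 PRP19 genes and 1 of 16 tri-snRNP genes also rose. Over all tested genes 7.34% were then higher and 6.64% lower. In these 6 lists 1 gene fell, SYF2 of the PRP19 list (log2 fold change -0.98, adjusted p = 0.0371 by edgeR).

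In 3 other lists no gene passed the edgeR test in either direction, namely 9 step helicases and second-step factors (median -0.18), 17 SR protein kinases and SR-related proteins (median -0.27) and 28 other RNA-binding regulators (median -0.18). At an unadjusted p under 0.05 by edgeR these lists held 1, 1 and 7 genes in that order, beside 2595 higher and 2115 lower of all 13604 tested genes. Their genes with the most reads were DHX15, SRRM2 and NONO. SRRM2, a large protein rich in serine and arginine, had 347 and 154 CPM in pos, against 356, 414 and 529.9 CPM in neg (log2 fold change -0.79, SE 0.39, adjusted p = 0.201 by edgeR). DHX15 had a log2 fold change of -0.10 and NONO of 0.24. After removal of the canonical length trend the list medians were 0.63 for LSM genes, 0.41 for SNRNP genes, 0.30 for the SMN list and 0.22 for the tri-snRNP list, and between -0.16 and 0.17 for the others.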

How the data were processed

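RNA of the 5 SW620 libraries was made into stranded poly(A) libraries, per the labels' protocols. The authors deposited 1 table of raw counts per gene symbol. The submitters' processing notes name CASAVA 1.8.2, STAR 2.5.2b and DESeq2 1.24.0. The notes give the build as hg19 and the labels as GRCh38, and neither names a counting program or strand option, so coordinates and lengths came from GENCODE 44.

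The table's 25435 rows held 92 spike-in rows with 0 reads, left out, and 25343 genes, 6886 of them without reads. Counts were tested in R 4.3.3 with edgeR 4.0.16 (filterByExpr with a minimum count of 10 and minimum total of 15, TMM scaling, quasi-likelihood test, pos against neg, Benjamini-Hochberg threshold 0.05). SE was taken from the fold change and the F statistic. At 1 library's depth 3 reads were 0.189 to 0.316 CPM. In the length fit, a lowess curve (span 0.3) of each library's deviation from the mean over libraries against log length entered as an offset; 97.01% of tested genes had a length. Alternatives used limma 3.58.1 and DESeq2 1.42.0, and the scripts were tested on simulated data.

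Full values are given for every member past the threshold, the 3 highest and 3 lowest log2 fold changes and the member with the highest mean CPM in each family, and 1 gene per direction from each pathway list (the smallest p among called genes, otherwise the highest CPM). The members and lists were chosen with earlier results of these data known. The result of 1 further pathway list is not reported here.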

Additional observations from a re-analysis of the deposited data

How the results depend on the processing

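The family order SNRP, SRSF, SF3, HNRNP and the sign of each family median held under every scaling, filter and tool run without a length term. The count of members higher was 5 by RLE, by upper quartile scaling and with a filter of 5 CPM in 2 libraries, and 7 without a filter. Over the table, 645 of 13604, 630 of 13604, 595 of 11169 and 743 of 18457 tested genes were higher in that order. DESeq2 gave 17 members, with 1799 genes higher and 1362 lower over the table. The limma-voom fit gave 3 members, with 493 genes higher and 586 lower. Scaling by library size only moved the median of all genes to -0.41 and left 148 genes and 2 members higher, with family medians of 0.95 for SNRP, 0.076 for SRSF, 0.035 for SF3 and -0.40 for HNRNP. At an adjusted p of 0.01, 0 members and 0 genes were higher and 1 gene was lower by edgeR.

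With the length trend removed 903 genes were lower over the table and 12 members higher, and the medians were 0.59 for SNRP and 0.069 for SF3. With the median coding length, an alternative added after the data were seen, the medians were 0.53 for SNRP, 0.20 for SF3 and 0.12 for SRSF. With the replicate number as a block, 0 members, 8 genes higher and 79 genes lower passed the threshold. With the block and the length trend removed together, 1 member, 161 genes higher and 254 lower passed, with medians of 0.54 for SNRP and 0.062 for SF3. Deviations from the group means had r = -0.44 for pos 1 with neg 1 and -0.45 for pos 3 with neg 3. The deviations of pos 1 and pos 3 are mirror images by construction, so these values are not separate checks. Whether the replicate numbers pair libraries cannot be decided from them.

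Leaving out 1 library gave 0 to 4324 genes higher and 0 to 4495 lower, and 0 to 26 members higher and 0 to 8 lower. Each neg library left out brought edgeR to 0, and DESeq2, added after the data were seen, then gave 8, 6 and 6 members. A lone pos library is assumed to vary like neg. The medians ranged from 0.79 to 1.90 for SNRP, 0.38 to 0.68 for SRSF, 0.17 to 0.47 for SF3 and -0.13 to -0.01 for HNRNP. With the length trend removed, leaving out pos 1 gave 3897 genes and 23 members higher and 3339 genes and 8 members lower, and leaving out pos 3 gave 2371 genes and 19 members higher and 2634 genes and 2 members lower. The medians were then 0.83 without pos 1 and 0.46 without pos 3 for SNRP, 0.22 and -0.039 for SF3, and 0.02 and 0.080 for HNRNP, in the same order.

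None of the 6 members past the edgeR threshold in the fit without a length term changed sign under any alternative run. Among the other members described with full values, signs changed as follows, and the remaining members were not followed here. By upper quartile scaling SF3B3 was -0.0009. By library size only SRSF6 was -0.16, SRSF1 -0.27, HNRNPA2B1 -0.050, SF3B3 -0.34 and SNRPA1 -0.16. With the length trend removed SRSF10 was 0.55, SF3B6 -0.59, SF3A1 0.056, SF3B1 0.069 and SNRPA1 -0.61. With the block added these were 0.55, -0.66, 0.040, 0.030 and -0.64, and HNRNPAB was -0.021. With the median coding length SRSF6 was -0.37, SRSF1 -0.036, SF3B6 -0.48, SF3A1 0.20 and SNRPA1 -0.47. With 1 library left out, SRSF6 ranged from -0.27 to 0.48, SRSF1 from -0.18 to 0.27, SRSF10 from -0.62 to 0.25, SF3B1 from -1.31 to 0.10 and SNRPA1 from -0.093 to 0.60. With the length trend removed as well, the values without pos 1 were 0.58 for SRSF10, -0.062 for HNRNPAB, 0.11 for HNRNPU, -0.88 for SF3B6, 0.23 for SF3A1 and -0.73 for SNRPA1, and those without pos 3 were 0.53 for SRSF10, -0.10 for SF3B5, -0.31 for SF3B6, 0.35 for SF3B1 and -0.49 for SNRPA1. The cause of these shifts was not tested beyond the length fits. Depth and the spread between the pos libraries limit the test, so uncalled members are not shown to be unchanged.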
